A study of Mus musculus with 24 samples.

Results

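Described here are 7 acid-base genes of the collecting duct, 7 of the 54432 genes in the deposited tables, across 24 RNA-seq libraries of mpkCCD cells. The genes are Rhcg, Rhbg, Slc4a1, Slc26a4, Foxi1, Car2 and Atp6v1b1. They were chosen by symbol as ammonia transport and intercalated cell genes, and with the knowledge that Rhcg rises in vehicle-treated cells over culture hours. Values in vehicle over hours are therefore given as a description, with no test. mpkCCD is a cell line from the mouse cortical collecting duct, with strain C57BL/6 and genotype wild type as given in the labels. It was grown on permeable filters for 6 days and kept in minimal medium for 24 h. The V2 receptor agonist dDAVP, a vasopressin analogue, or vehicle was then given on the basolateral side. The 8 groups were vehicle and dDAVP at 3, 6, 12 and 24 h, with 3 libraries each. All groups share the line, the filters and the medium. The labels do not say whether the 3 libraries of a group came from separate cultures. The p-values rest on the scatter among libraries within groups, pooled over the 8 groups, part or all of which could be technical.

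The collecting duct holds principal cells, which take up water and sodium under vasopressin, and intercalated cells, which move acid and base. Rhcg and Rhbg belong to the Rh glycoprotein family and let ammonia cross the apical and the basolateral membrane. Car2, the cytosolic carbonic anhydrase, makes protons and bicarbonate from carbon dioxide and water. The V-type proton pump, of which Atp6v1b1 is the B1 subunit, secretes the protons. Slc4a1 (AE1, the basolateral chloride-bicarbonate exchanger of acid-secreting cells) and Slc26a4 (pendrin, the apical exchanger of base-secreting cells) move the bicarbonate. Foxi1 is the forkhead transcription factor that intercalated cells need in order to form, and it is known to act on the genes of the pump and the exchangers.

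In GRCm38 with the GENCODE M21 annotation, Rhcg lies on chromosome 7 (79593363 to 79617657, minus strand). Rhbg lies on chromosome 3 (88242874 to 88254709, minus strand) and Car2 on the same chromosome (14886273 to 14900770, plus strand). Atp6v1b1 lies on chromosome 6 (83742990 to 83758855, plus strand), Slc4a1 and Foxi1 on chromosome 11 (102348824 to 102366203 and 34204338 to 34208089, both minus strand), and Slc26a4 on chromosome 12 (31519827 to 31559969, minus strand). Rhbg shares 1190 of its 1937 exonic bases with Gm38392, a protein-coding read-through gene on the same strand, so its estimated counts are uncertain. Gm38392 had a mean of 0.277 CPM (counts scaled to a common library size) against 1.54 for Rhbg.

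The RefSeq table of promoters (GRCm38.p6) held 4 of the 7 genes (Rhcg, Slc26a4, Foxi1 and Atp6v1b1), and the 250 bases before the start were searched on both strands. The motifs were the cAMP response element TGACGTCA and its core TGACG (letters that also lie within the full element), the forkhead core TGTTTA and the E-box CACGTG. The single match was a forkhead core in the Atp6v1b1 window, 98 bases before the RefSeq start. For this gene that start lies inside the GENCODE span given above, so the window's end overlaps that span. TGTTTA occurred in 12.02% of 32536 windows of the same length, TGACG in 17.85%, TGACGTCA in 1.56% and CACGTG in 6.04%. The windows of Rhcg (chr7:79617658-79617907, minus strand), whose change over hours with dDAVP at 24 h held in every fit run, and Atp6v1b1 (chr6:83742767-83743016, plus strand), the one with a match, read as follows, 5′ to 3′, with the match in capitals.
Rhcg: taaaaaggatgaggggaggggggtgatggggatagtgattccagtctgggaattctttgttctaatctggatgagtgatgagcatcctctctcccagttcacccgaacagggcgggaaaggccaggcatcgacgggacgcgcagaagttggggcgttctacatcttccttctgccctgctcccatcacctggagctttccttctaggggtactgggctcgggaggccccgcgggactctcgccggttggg
Atp6v1b1: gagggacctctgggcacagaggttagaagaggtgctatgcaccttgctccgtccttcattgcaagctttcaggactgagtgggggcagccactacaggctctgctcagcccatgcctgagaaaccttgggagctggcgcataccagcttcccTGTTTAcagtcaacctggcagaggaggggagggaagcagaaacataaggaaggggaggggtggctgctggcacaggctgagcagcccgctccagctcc

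Library depth was 17248060 to 27642311 estimated counts. Aqp2, the vasopressin-regulated water channel, served as the check of the treatment: it was 1.78 to 4.04 TPM (a transcript level per length, scaled to the same total in each library) in the vehicle libraries and 56.3 to 101 TPM in the dDAVP libraries. Principal cell markers (13 genes) summed to 112 to 239 TPM per library and intercalated cell markers (14 genes, 6 of them members described here) to 12.2 to 25 TPM, and none of these markers was at 0 in every library. The same held for markers of cell types the line does not come from: 6 leukocyte markers summed to 9.08 to 20.2 TPM and 8 proximal tubule markers to 2.37 to 11.5 TPM, and none was at 0 in every library. The intercalated cell sum thus overlapped that of the leukocyte markers and does not by itself identify the cells. The libraries also differed in the share of counts that fell on 1962 olfactory and vomeronasal receptor genes, most of which have no known role in kidney epithelium. Its group means in vehicle were 0.652, 0.544, 0.493 and 0.233% at 3, 6, 12 and 24 h. With dDAVP they were 0.387, 0.203, 0.346 and 0.208%, so the share moved with both treatment and hours. The median log2 fold change for dDAVP averaged over the 4 times was -0.196 over all 29743 genes tested and 0.152 over the 11836 genes with at least 5 CPM. At 3, 6, 12 and 24 h the medians over all genes tested were -0.144, -0.394, -0.05 and -0.035, and those over genes with at least 5 CPM were 0.186, 0.335, 0.076 and 0.006. Fold changes of counts are relative to TMM scaling and stand against these shifts, and a second fit had the log2 receptor share as a covariate. The share moved with treatment, and at 6 h it did not overlap (0.458 to 0.601% in vehicle, 0.14 to 0.287% with dDAVP). The second fit can therefore also take away an effect of dDAVP itself. A call lost in it cannot tell the share from dDAVP.

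Per length, the 7 genes fell into an abundant member, a pair at intermediate level and 4 with means below 1 TPM. Car2 had a mean of 75.6 TPM over the 24 libraries (65.4 to 85.6). Rhcg followed with 7.37 TPM (4.53 to 10.5) and Atp6v1b1 with 4.88 TPM (2.19 to 7.78). Slc4a1, Rhbg and Slc26a4 had means of 0.543, 0.518 and 0.514 TPM, and Foxi1 had 0.0783 TPM. The libraries of Car2 did not overlap with those of any other member, whereas the ranges of Rhcg and Atp6v1b1 overlapped, as did those of Slc4a1, Rhbg and Slc26a4. The receptor genes had a median of 0.0999 TPM, and 42.5% of them lay below Foxi1. For Slc4a1, Rhbg and Slc26a4 these shares were 88, 87.5 and 87.3%. The TPM of Slc4a1 and Slc26a4 are unstable between libraries, as given below, so their rank beside Rhbg is uncertain. Mean CPM was 0.758 for Slc4a1, 1.54 for Rhbg and 0.647 for Slc26a4. Car2, Rhcg and Atp6v1b1 lay above 100, 99.9 and 99.7% of the receptor genes. Of the 3 well-detected genes, Car2 is not on the intercalated cell marker list used here, and these levels do not by themselves identify the cells. Foxi1, the defining factor, was near the median receptor gene.

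**Figure D1:**
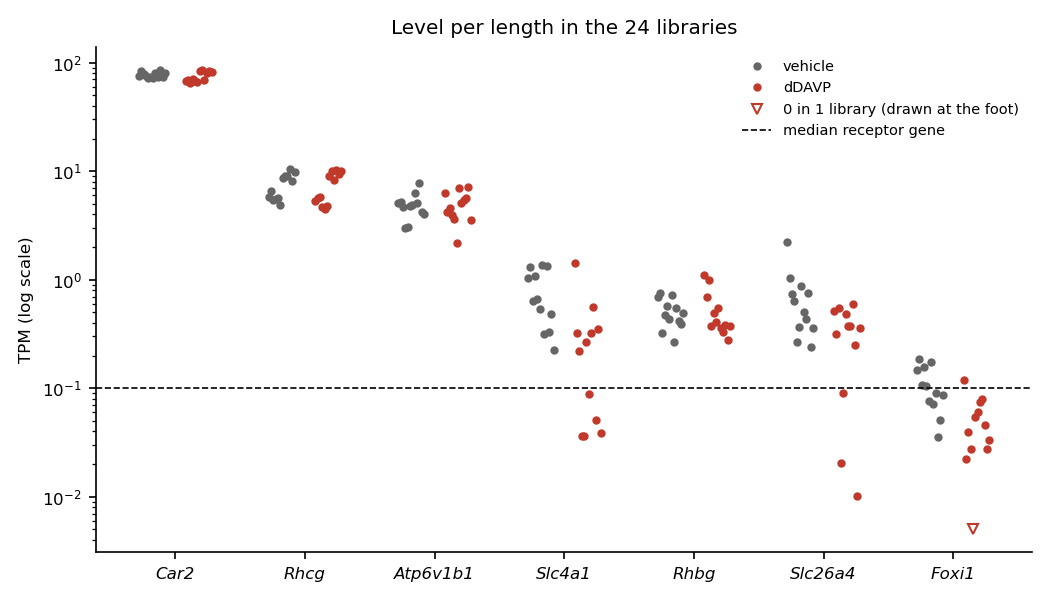
TPM of the 7 genes in each of the 24 libraries on a log axis, with vehicle and dDAVP libraries as separate points and the median of 1962 receptor genes (0.0999 TPM) as a dashed line. Car2 sits between 65.4 and 85.6 TPM, and the Foxi1 points straddle the dashed line, with 1 dDAVP library at 0.

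Rhcg, the apical ammonia channel, was higher at the later times in both treatments. In vehicle, its CPM in replicates 1, 2 and 3 was 12.4, 16 and 15.7 at 3 h, then 16, 16.1 and 15.2 at 6 h, then 22.1, 32.6 and 27.5 at 12 h, then 35.6, 31.5 and 31 at 24 h. With dDAVP it was 15.4, 19.2 and 19.6 at 3 h, then 19.1, 20.5 and 19.9 at 6 h, then 28.3, 32.2 and 31.2 at 12 h, then 36.8, 36.5 and 36.2 at 24 h. All 12 libraries from 12 and 24 h lay above all 12 from 3 and 6 h. In TPM the vehicle means ± SD (n = 3) were 5.95 ± 0.609, 5.37 ± 0.435, 8.83 ± 0.193 and 9.51 ± 1.25 in order of time, and the dDAVP means were 5.57 ± 0.276, 4.67 ± 0.121, 9.15 ± 0.92 and 9.91 ± 0.443. The step lay between 6 and 12 h on both scales.

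In the vehicle libraries, whose behaviour chose the gene, the log2 fold change of Rhcg counts against 3 h was 0.1 ± 0.131 (SE) at 6 h, 0.89 ± 0.129 at 12 h and 1.15 ± 0.129 at 24 h. Earlier results of these data were known at the choice, and the dDAVP libraries share their culture hours with vehicle. Their p-values are therefore not independent support for the rise. The dDAVP libraries were tested with edgeR's quasi-likelihood test and Benjamini-Hochberg adjustment over all genes tested. In them Rhcg rose by 0.76 ± 0.128 at 12 h against 3 h (adjusted p = 0.00173) and by 1.02 ± 0.128 at 24 h (adjusted p = 5.33e-05), while the value at 6 h was 0.14 ± 0.129 (adjusted p = 0.478). These comparisons share the 3 h libraries. The median change at 24 h over genes with at least 5 CPM was 0.132. With receptor share in the model the rise at 24 h was 0.84 (adjusted p = 2.9e-06), and over all 10 alternative fits it ranged from 0.73 to 1.12 and kept its call, as it did without each library in turn. Hours in culture and hours of dDAVP cannot be told apart in the dDAVP libraries alone.

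**Figure D2:**
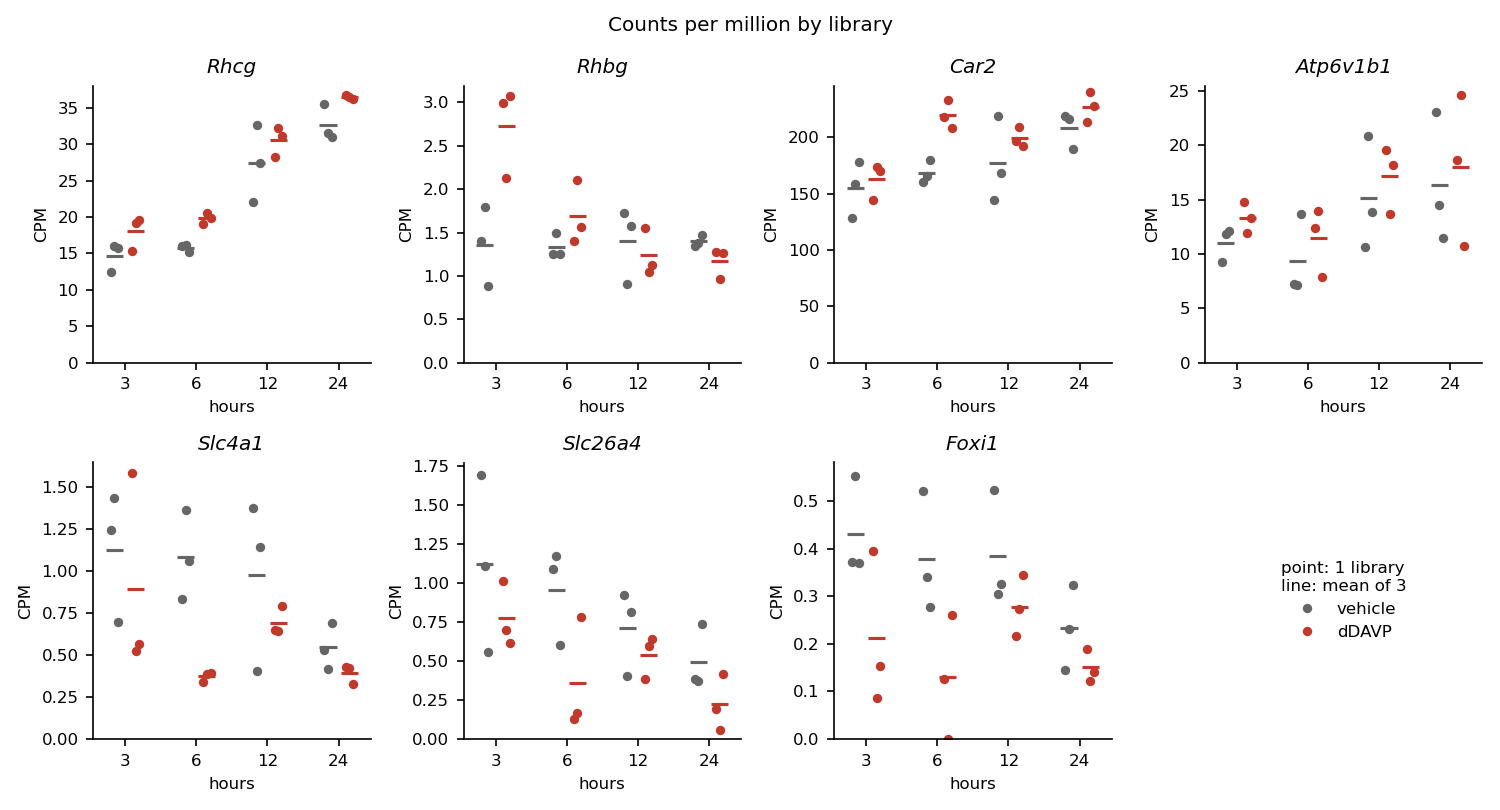
CPM of each of the 7 genes (1 panel a gene, linear axes from 0 that differ between panels) at 3, 6, 12 and 24 h, with 1 point per library and a line at the mean of 3, vehicle in grey and dDAVP in red. Rhcg runs from 12.4 to 20.5 CPM at 3 and 6 h and from 22.1 to 36.8 CPM at 12 and 24 h, and the Rhbg points at 3 h with dDAVP, 2.13 to 3.08 CPM, lie above all other points, the next being at 2.11 CPM.

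The effect of dDAVP on Rhcg was small and turned with the scale. On counts, the mean effect over the 4 times was 0.24 ± 0.0639 (edgeR, adjusted p = 0.02), against the median of 0.152 for genes with at least 5 CPM. It was 0.1 with receptor share in the model (adjusted p = 0.646) and -0.04 on log2(TPM + 1) with limma. Its call was lost without any 1 of 6 libraries (adjusted p = 0.05 to 0.0729): dDAVP 3 h replicate 3, dDAVP 6 h replicate 2, dDAVP 12 h replicates 2 and 3, vehicle 24 h replicate 3 and dDAVP 24 h replicate 2. At 6 h the dDAVP libraries were all higher in CPM (log2 fold change 0.33 ± 0.13, edgeR, adjusted p = 0.0474) and all lower in TPM, at 4.53 to 4.77 against 4.87 to 5.66. A small RNA gene, Gm24245, takes a large part of TPM in every library and moves all other TPM. With Gm24245 removed and TPM rescaled, Rhcg means ± SD at 6 h were 9.66 ± 0.44 in vehicle and 9.47 ± 0.312 with dDAVP. The 6 h call was lost without each library in turn (adjusted p = 0.0985 to 0.277). A steady effect of dDAVP on Rhcg beyond the shift of other genes was not detectable.

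Rhbg, the basolateral Rh glycoprotein, followed another course. In vehicle, its CPM in replicates 1, 2 and 3 was 1.4, 1.8 and 0.879 at 3 h, then 1.25, 1.5 and 1.25 at 6 h, then 1.73, 0.912 and 1.57 at 12 h, then 1.34, 1.38 and 1.47 at 24 h. With dDAVP it was 2.99, 2.13 and 3.08 at 3 h, then 1.4, 2.11 and 1.56 at 6 h, then 1.55, 1.05 and 1.13 at 12 h, then 1.28, 0.969 and 1.26 at 24 h. The vehicle groups overlapped at all 4 times, with a log2 fold change of 0.04 ± 0.303 between 24 and 3 h. In CPM the dDAVP libraries were all above vehicle at 3 h and all below it at 24 h. In TPM the 3 h groups overlapped, at 0.689 to 1.11 with dDAVP and 0.324 to 0.748 in vehicle, and the 24 h groups did not, at 0.278 to 0.385 and 0.389 to 0.497.

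Within dDAVP, Rhbg fell by 1.21 ± 0.301 on the log2 scale from 3 to 24 h (edgeR, adjusted p = 0.044), where 0.293% of genes were called lower. The value was -0.9 with receptor share in the model (adjusted p = 0.0476) and -1.12 with Gm38392 counts added (adjusted p = 0.0285). The call was lost with RLE size factors (adjusted p = 0.0764), with no filter (0.0825), on log2(TPM + 0.1) (0.0577) and without each of the 6 libraries in turn (0.0517 to 0.232), with log2 fold changes of -1.36 to -1.07 in the fits that left out 1 library. Against vehicle at 3 h, Rhbg had a log2 fold change of 1 ± 0.295 with an unadjusted p of 0.00228 and an adjusted p of 0.212 by edgeR. With receptor share in the model the 3 h difference passed, at 1.26 ± 0.244 (adjusted p = 0.00533). With Gm38392 added and no covariate it was 0.71 (adjusted p = 0.365).

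**Figure D3:**
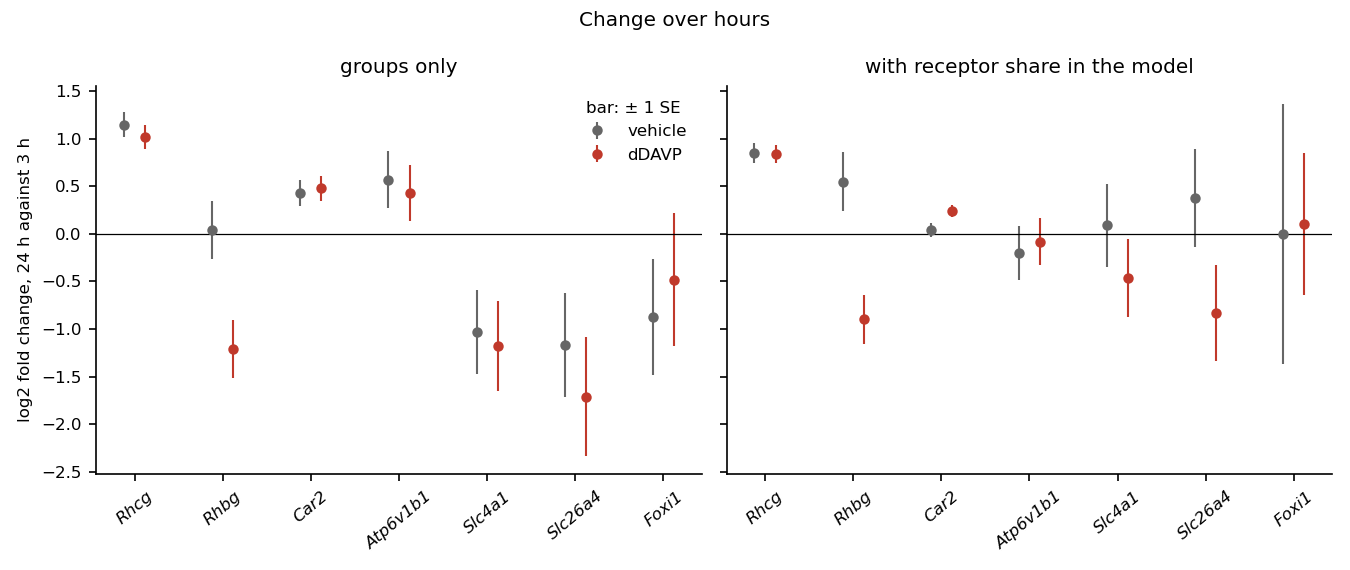
Log2 fold change at 24 h against 3 h (points, with bars of 1 SE) for the 7 genes in vehicle (grey) and dDAVP (red), from the fit with groups only (left) and with receptor share as a covariate (right). Rhcg is above 0 in both panels and both treatments, and Rhbg is near 0 in vehicle in the left panel and below 0 with dDAVP in both panels.

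Car2 was abundant and stayed within a narrow range, from 65.4 to 85.6 TPM. Its vehicle TPM in replicates 1, 2 and 3 was 75.1, 84 and 78.1 at 3 h, then 75.2, 72.1 and 74 at 6 h, then 72.7, 81 and 73.8 at 12 h, then 85.1, 73.5 and 80.9 at 24 h. With dDAVP it was 67.4, 68.5 and 65.4 at 3 h, then 71.4, 68.1 and 65.8 at 6 h, then 83.2, 85.6 and 69.2 at 12 h, then 79.6, 83 and 82.6 at 24 h. At 3 and 6 h all dDAVP libraries lay below all vehicle libraries in TPM, and in CPM the 6 h groups lay the other way, at 208 to 233 with dDAVP and 160 to 180 in vehicle. With Gm24245 removed and TPM rescaled, Car2 means ± SD at 6 h were 133 ± 6.19 in vehicle and 139 ± 2.9 with dDAVP. At 3 h they were 133 ± 11.2 and 122 ± 1.4. The CPM difference at 6 h was 0.38 ± 0.132 on the log2 scale (edgeR, adjusted p = 0.0315), against a median of 0.335 for genes with at least 5 CPM, and it was -0.11 on log2(TPM + 1) and -0.02 with receptor share in the model. Without each library in turn the call was lost (adjusted p = 0.0861 to 0.237). From 3 to 24 h within dDAVP, Car2 was higher in all 3 libraries on both scales, by 0.48 ± 0.132 on counts (adjusted p = 0.068, edgeR). That difference passed in 7 of 10 alternative fits, among them receptor share in the model (0.24, adjusted p = 0.0323), at least 5 CPM (0.35, adjusted p = 0.00017) and log2(TPM + 1) with limma (0.28, adjusted p = 0.0453).

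Atp6v1b1, the pump's B1 subunit, varied widely among the libraries of a group. Its vehicle CPM in replicates 1, 2 and 3 was 9.24, 11.8 and 12.1 at 3 h, then 7.22, 7.18 and 13.7 at 6 h, then 10.6, 20.9 and 13.9 at 12 h, then 23.1, 14.5 and 11.5 at 24 h. With dDAVP it was 14.8, 11.9 and 13.3 at 3 h, then 12.4, 14 and 7.91 at 6 h, then 19.6, 13.7 and 18.2 at 12 h, then 18.7, 24.6 and 10.7 at 24 h. The dDAVP and vehicle libraries overlapped at every time. The mean effect of dDAVP was 0.22 ± 0.149 on the log2 scale (edgeR, adjusted p = 0.226) and -0.11 ± 0.135 with receptor share in the model. At 24 h against 3 h within dDAVP it was 0.43 ± 0.297 (edgeR, adjusted p = 0.36). A change in Atp6v1b1 was not detectable against this spread.

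The exchangers and Foxi1 rested on few reads. Slc4a1 had 7 to 36 estimated counts per library, Slc26a4 had 1 to 41, and Foxi1 had 0 to 13. Slc4a1 CPM at 6 h was 0.831, 1.36 and 1.06 in vehicle and 0.339, 0.388 and 0.391 with dDAVP, and these groups did not overlap. Slc26a4 at 6 h was 1.09, 1.17 and 0.601 CPM in vehicle and 0.127, 0.166 and 0.782 CPM with dDAVP, and these overlapped. Foxi1 at 6 h was 0.52, 0.34 and 0.277 CPM in vehicle. With dDAVP it was 0.127 and 0.261 CPM in replicates 1 and 3, and a count of 0 in replicate 2, which allows up to 0.166 CPM (3 counts, counting error only). All dDAVP libraries were below all vehicle libraries for Foxi1 at 6 h, and at the other times its groups overlapped. In vehicle, log2 fold changes at 24 h against 3 h were -1.03 ± 0.445 (Slc4a1), -1.17 ± 0.55 (Slc26a4) and -0.87 ± 0.611 (Foxi1), with no test. Within dDAVP they were -1.18 ± 0.475, -1.71 ± 0.628 and -0.48 ± 0.702 (edgeR, adjusted p = 0.171, 0.143 and 0.665). Medians over all genes tested were -0.437 in vehicle and -0.238 with dDAVP.

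Averaged over the 4 times, counts of all 3 genes were lower with dDAVP in the fit with groups only, where 16.4% of all genes were called lower: Slc4a1 had a log2 fold change of -0.71 ± 0.229, Slc26a4 -0.85 ± 0.291 and Foxi1 -0.88 ± 0.324 (edgeR, adjusted p = 0.0289, 0.034 and 0.0424). Leaving out 1 library ended these calls in 11, 15 and 18 of 24 fits. Markers of other cell types were lower in the same fit, with medians of -0.54 for fibroblast, -0.45 for endothelium and -0.43 each for proximal tubule, leukocyte and thick limb with distal tubule markers, 1 to 3 genes of each list called lower and 0 higher, against a median of -0.196 over all genes tested. Their part in the result was not tested. These 3 genes moved with the receptor share: across the 24 libraries, which share their scaling, Pearson's r of log2 CPM with log2 receptor share was 0.89 for Slc4a1, 0.85 for Slc26a4 and 0.72 for Foxi1. For Rhbg it was 0.21, for Atp6v1b1 -0.57, for Rhcg -0.63 and for Car2 -0.92, and its median over genes with at least 5 CPM was -0.8. With receptor share in the model the mean effects were -0.17, -0.12 and -0.47, with adjusted p of 0.897, 0.948 and 0.788. The call for Slc4a1 at 6 h, -1.53 ± 0.469 (edgeR, adjusted p = 0.0224), became -0.44 (adjusted p = 0.954). The share itself did not overlap between treatments at 6 h, so receptor share and dDAVP cannot be told apart there. The Slc4a1 call was also lost without vehicle 6 h replicate 1 or 2 or dDAVP 6 h replicate 1 or 2 (adjusted p = 0.06 to 0.125). The ratio of counts to TPM spanned 10.7-fold between libraries for Slc4a1 and 10.8-fold for Slc26a4, against 1.04- to 1.19-fold for the other members, so their TPM values are unstable.

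**Figure D4:**
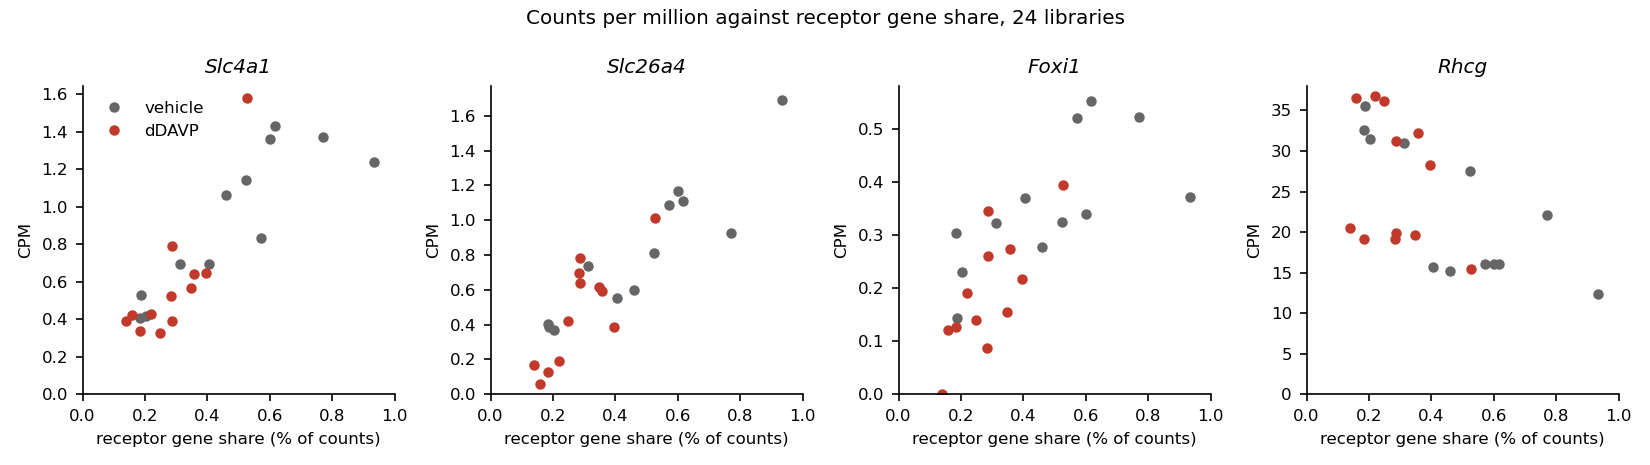
CPM of Slc4a1, Slc26a4, Foxi1 and Rhcg (vertical axes from 0) against the percentage of counts on 1962 receptor genes, 1 point per library, vehicle in grey and dDAVP in red. Slc4a1, Slc26a4 and Foxi1 climb with the share (r on log2 scales 0.89, 0.85 and 0.72), and Rhcg does not.

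The counts of members called are given with the share of all genes called in the same comparison. For dDAVP against vehicle by edgeR, 0 members were called at 3 h (0.484% of 29743 genes), 3 at 6 h (38.1%), 0 at 12 h (0.0773%) and 0 at 24 h (0.0841%). Rhbg and Rhcg had an unadjusted p under 0.05 at 3 h, and no member did at 12 or 24 h, and DESeq2 also called 0 at these 3 times. At 6 h Rhcg and Car2 were called higher (20.9% of all genes) and Slc4a1 lower (17.2%). That count was 0 without vehicle 6 h replicate 1 or 2 or dDAVP 6 h replicate 1 or 2, when 84 to 252 of all genes were called in place of 11320. For the mean effect 5 were called (33.1% of all genes), Rhcg and Car2 higher (16.7%) and Slc4a1, Slc26a4 and Foxi1 lower (16.4%). The 5 became 0 without dDAVP 3 h replicate 3, dDAVP 6 h replicate 2, vehicle 24 h replicate 3 or dDAVP 24 h replicate 2, and Car2 lost its call in 20 of 24 fits that left out 1 library. With receptor share in the model the count was 1 at 3 h (Rhbg, 0.726% of all genes), 0 at 6, 12 and 24 h (0.336, 0.296 and 0.35%) and 0 for the mean effect (1.22%), and 1, 0, 0 and 1 members had an unadjusted p under 0.05 where the count was 0. Within dDAVP, 0 members were called at 6 h against 3 h (0.00672%; 3 had an unadjusted p under 0.05 and DESeq2 called 0), 1 at 12 h (Rhcg, 1.18%) and 2 at 24 h (Rhcg higher and Rhbg lower, 1.3% of all genes, 1.01% higher and 0.293% lower). With receptor share these were 0 (0.0336%, with 2 members at an unadjusted p under 0.05), 3 at 12 h (6.9%) and 3 at 24 h (4.01%), the 24 h calls being Rhcg and Car2 higher (1.37%) and Rhbg lower (2.64%).

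**Figure D5:**
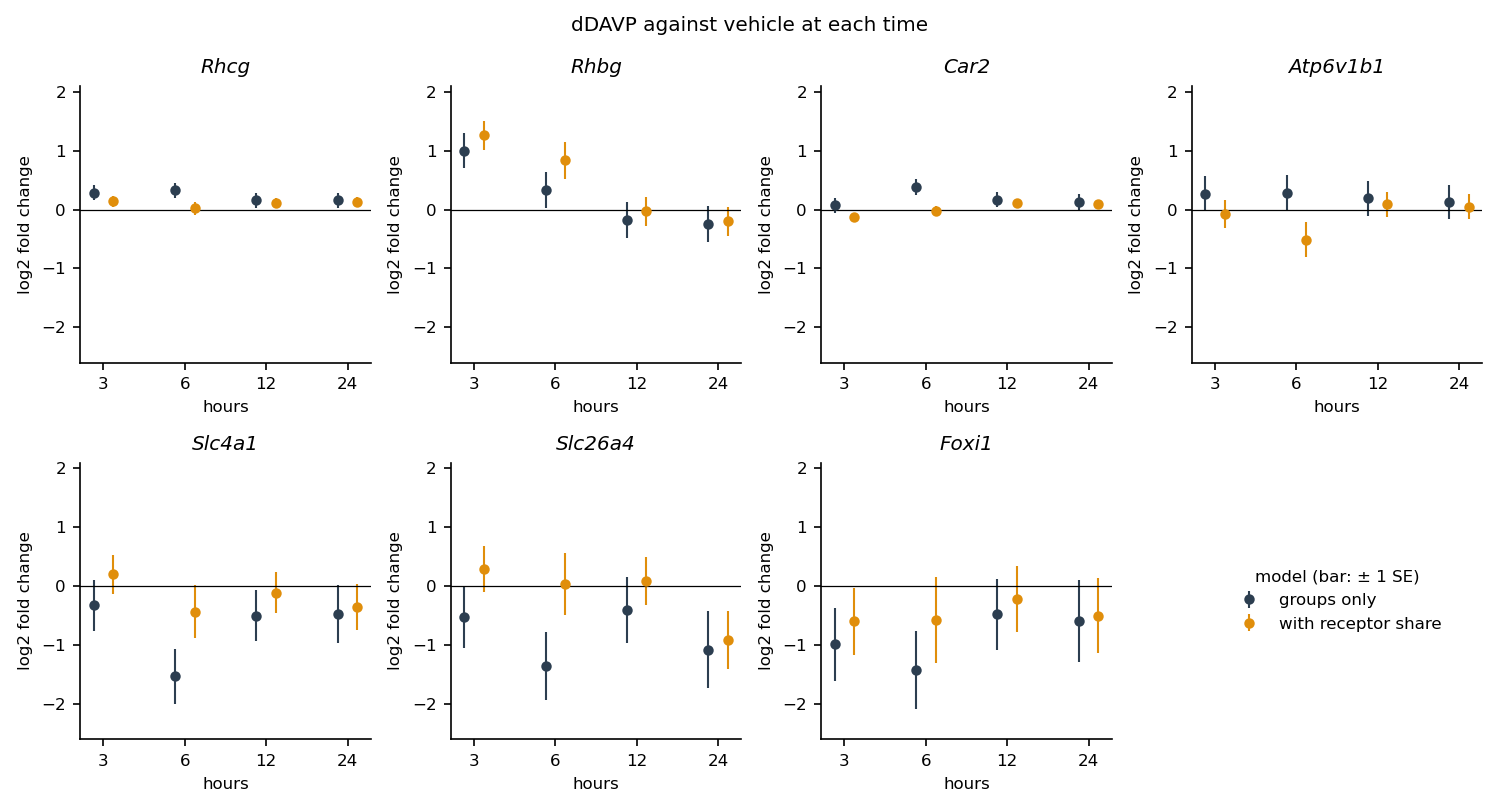
Log2 fold change of dDAVP against vehicle at 3, 6, 12 and 24 h for each gene (points with bars of 1 SE), from the fit with groups only (dark) and with receptor share as a covariate (orange). Rhbg at 3 h is 1 and 1.26 in the 2 fits, whereas Slc4a1 at 6 h moves from -1.53 to -0.44.

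Other genes of acid-base handling were taken from 10 lists, and their calls for the mean dDAVP effect are edgeR's. The widely expressed V-type pump subunits, which acidify organelles in most cells, had 12 of 16 genes called higher and 0 lower, where 16.7% of all genes were called higher. Their median was 0.2, against 0.152 for genes with at least 5 CPM. With receptor share in the model none of the 16 was called (median 0.03), and on log2(TPM + 1) the median was -0.05 with 0 higher and 2 lower. On TPM rescaled without Gm24245 the median was 0.02, with 0 higher and 1 lower. Examples are Atp6v1g1 at 0.25 ± 0.0688 and Atp6v1a at 0.24 ± 0.0695. Of the ammonia production genes described, Got1, Got2 and Glud1 (glutamate dehydrogenase) were called higher, at 0.19 to 0.22. None of these 3 passed with the covariate (adjusted p = 0.82 to 0.982), and on log2(TPM + 1) they were at -0.07 to -0.04. On TPM rescaled without Gm24245 they were at 0 to 0.04. Among 9 transcription factors listed for intercalated cells, Gata3, Grhl2, Cux1 and Foxp1 were called higher at 0.15 to 0.24. Each was below 0 on log2(TPM + 1) and not called with the covariate. On TPM rescaled without Gm24245, Gata3 was at 0.05 and Grhl2, Cux1 and Foxp1 at -0.04, -0.02 and -0.14. This list is not specific to intercalated cells: Gata3, Tfcp2l1 and Elf5 are also on the principal cell marker list used here. In 6 other Rh and ammonium transport genes, Slc9a3, a sodium-proton exchanger, was called lower (-0.65 ± 0.212), at -0.14 with the covariate. Of all genes, 16.4% were called lower.

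A few genes of these lists rose with dDAVP in both fits. Aqp6, an intracellular channel of intercalated cells, was 0.461 to 1.29 CPM in vehicle and 2.71 to 4.06 CPM with dDAVP at 24 h, and the groups overlapped only at 12 h. Its mean log2 fold change was 1.6 ± 0.193 (adjusted p = 5.61e-06, edgeR), 1.39 with receptor share in the model and 0.48 on log2(TPM + 1), and all 8 alternatives and all 24 fits without 1 library kept the call. Aqp6 lies on chromosome 15 (99601400 to 99605477), 16852 bases downstream of Aqp2 on the same strand. Aqp2 rose by 4.83 ± 0.0839, and its part in the Aqp6 result was not tested. Spink8, a serine protease inhibitor of the Kazal family, was 0.623 to 0.831 CPM in vehicle and 1.21 to 1.88 CPM with dDAVP at 24 h. At 3 h its groups overlapped (0.507 to 0.833 and 0.617 to 1.3 CPM), and at 6 h, where they did not in CPM, mean TPM was 1.04 in vehicle and 1.02 with dDAVP. Its mean effect was 1.09 ± 0.188 (adjusted p = 0.000868) and 1.02 with the covariate (adjusted p = 0.00824, edgeR).

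Pump and enzyme genes were among these too. In the fit with groups only, 1 of 3 H,K-ATPase genes and 2 of 4 pump subunits enriched in intercalated cells were called higher and 0 lower. In that fit 16.7% of all genes were called higher. With the covariate 1 of 3 and 1 of 4 were called higher, where 1.22% of all genes were called either way. Atp4a, the catalytic subunit of the gastric H,K-ATPase, was 0.867 to 1.39 CPM in vehicle and 2.48 to 3.47 CPM with dDAVP at 3 h, and 0.922 to 1.05 against 1.39 to 1.52 CPM at 24 h. At 12 h its groups overlapped, at 0.608 to 1.68 CPM in vehicle and 1.16 to 1.65 CPM with dDAVP. Its mean effect was 0.9 ± 0.159 (adjusted p = 0.00109, edgeR) and 1.06 with the covariate. Atp6v0a4, the a4 subunit through which the intercalated cell pump is anchored, was 5.13 to 5.35 CPM in vehicle and 7.23 to 10.2 CPM with dDAVP at 24 h. In CPM it did not overlap between treatments at any time. In TPM the Atp6v0a4 groups overlapped at 3, 12 and 24 h. At 6 h all dDAVP libraries lay below all vehicle libraries in TPM, at 1.02 to 1.21 against 1.34 to 1.87. Its mean effect on counts was 0.6 ± 0.0924 (adjusted p = 0.000218, edgeR) and 0.58 with the covariate, but -0.02 on log2(TPM + 1) and 0.03 on TPM rescaled without Gm24245. The other was Atp6ap2, an accessory protein of the pump, at 0.35 ± 0.0671 and 0.19 with the covariate (adjusted p = 0.075). Car12, a membrane-bound carbonic anhydrase, had 0.34 ± 0.0673 (adjusted p = 0.00379, edgeR) and 0.29 with the covariate, and 0.03 on log2(TPM + 1). Aqp6, Spink8, Atp4a and Atp6v0a4 had means of 0.625, 1.04, 0.684 and 1.79 TPM, and Car12 had 2.39 TPM.

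The remaining lists held lower calls that did not pass in the fit with the covariate, which cannot tell receptor share from dDAVP. In the fit with groups only, 16.4% of all genes were called lower and 16.7% higher. Of 14 carbonic anhydrases tested, Car5a and Car10 were called lower (-0.68 and -0.57), at -0.15 and -0.09 with the covariate. Of 16 bicarbonate and anion exchangers, Slc4a5 and Slc26a3 were called lower (-0.58 and -0.55) and Slc4a7 and Slc4a11 higher (0.18 and 0.16, both below 0 on log2(TPM + 1)), and none passed with the covariate. Of 19 other intercalated cell markers tested, 7 were called lower (16.4% of all genes), among them P2ry14 (-0.71) and Syn2 (-0.79), and 2 higher (Aqp6 and Spink8). With the covariate 0 were called lower and 2 higher (1.22% of all genes called either way), and P2ry14 was at -0.12 and Syn2 at -0.05. Of 6 acid-base sensing genes, Adcy10, the bicarbonate-sensitive adenylyl cyclase, was called lower (-0.53, and -0.09 with the covariate) and Src higher (0.22, at -0.04 on log2(TPM + 1) and 0.03 on TPM rescaled without Gm24245).

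Over hours within dDAVP, 2 genes of the lists were called at 24 h against 3 h by edgeR. Bsnd, the barttin subunit of the ClC-K chloride channels, was 21.2, 26.2 and 23 CPM at 3 h and 48.7, 45.3 and 47 CPM at 24 h. It rose by 1 ± 0.146 (adjusted p = 0.000346) and kept its call in all 10 alternatives. The vehicle libraries of Bsnd were at 19, 21.4 and 25.1 CPM at 3 h and at 48.3, 49.1 and 49.1 CPM at 24 h, so the course was similar without dDAVP, and the mean dDAVP effect was 0.07 (adjusted p = 0.405, edgeR). Slc4a11, known to be permeable to ammonia and protons, was 275, 342 and 299 CPM at 3 h and 205, 185 and 227 CPM at 24 h, and in vehicle it was 214 to 304 CPM at 3 h and 204 to 209 CPM at 24 h. It fell by 0.57 ± 0.121 on the log2 scale (adjusted p = 0.0156, edgeR) and by 0.71 with the covariate. Its call was lost with RLE size factors (-0.47, adjusted p = 0.193) and without dDAVP 3 h replicate 2 or 3 or dDAVP 24 h replicate 1 or 2 (adjusted p = 0.072 to 0.159).

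Genes whose log2 CPM was most like that of Rhcg over the 24 libraries were, of 10480 named genes with at least 5 CPM on average, Per2 (Pearson's r = 0.966), Mroh1 (0.965), Tef (0.964), Tjp3 (0.964), Selenom (0.963) and Pfkm (0.96). The libraries share depth and scaling, and these r are descriptions. Per2, a clock repressor, was at 19.8, 20.6, 30.9 and 41.9 CPM in vehicle and 20.3, 26, 34.6 and 40.9 CPM with dDAVP in order of time. Tef, a PAR bZIP transcription factor, was at 34.2, 35.1, 59.1 and 66.1 CPM in vehicle and 37.4, 40.9, 58.4 and 70.7 CPM with dDAVP. Both were low at 3 and 6 h and high at 12 and 24 h, as Rhcg was. For Car2 the nearest were Sec62 (0.971), Srp54a (0.97), Adh5 (0.97), Acadm (0.97), Mettl9 (0.965) and Rsrc1 (0.965).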

How the data were processed

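RNA was measured in 24 libraries made with SMART-Seq HT and Nextera reagents, per the labels' protocols. The authors deposited estimated counts and TPM per Ensembl gene, and the submitters' processing notes list Salmon as a tool and GRCm38.p6 as a build. How strand was treated is not given in the sources used here. GENCODE M21 gave names to 54346 of 54432 identifiers. One small RNA gene, Gm24245, takes 37.4 to 51.7% of the deposited TPM of a library, which moves all other TPM.

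Estimated counts were rounded and analysed with edgeR 4.0.16 (R 4.3.3): TMM, filterByExpr (29743 genes, all 7 members), 1 mean per group, quasi-likelihood F test, and Benjamini-Hochberg adjustment over all genes tested (threshold 0.05). SE is the fold change divided by the root of F. CPM use TMM library sizes. limma 3.58.1 was used on log2 TPM with 1 or 0.1 added, and those fold changes understate low genes. DESeq2 1.42.0 was an alternative. The receptor covariate is the log2 share of counts on receptor genes. The code was tested on simulated data. Figures used matplotlib 3.10.9.

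The members and lists were chosen with earlier results of these data known. Named were the members, up to 4 called genes of each list and comparison by smallest p, and the 6 genes nearest to Rhcg and to Car2 in log2 CPM with a prior count of 2. A p below the threshold was required to call a gene. TPM after removal of Gm24245, and Rhbg summed with Gm38392, were added after seeing the data. One gene of the ammonia production list is not reported here.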

Additional observations from a re-analysis of the deposited data

Results flagged for a closer look

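Rhbg CPM with dDAVP was above all vehicle libraries at 3 h (log2 fold change 1) and below all vehicle libraries at 24 h (log2 fold change -0.25). The 2 times lay in opposite directions in CPM, in TPM the 3 h groups overlapped, and the difference between them was not tested. Neither value passed on its own with edgeR (adjusted p = 0.212 and 1).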

How the results depend on the processing

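Counts of members called (main counts 0, 3, 0, 0 and 5 for dDAVP against vehicle at 3, 6, 12 and 24 h and on average, and 0, 1 and 2 within dDAVP at 6, 12 and 24 h against 3 h) depended on the setting. With at least 5 CPM only 3 members were tested, and Rhbg, Slc4a1, Slc26a4 and Foxi1 could not be called. At 6 h the count was 0 at a threshold of 0.01, with at least 5 CPM, with receptor share, on log2(TPM + 1) and on TPM rescaled without Gm24245, 1 with RLE size factors or no filter, and 0 to 3 without 1 library. For the mean effect it was 0 at 0.01, with at least 5 CPM and with receptor share, 1 with no filter, 3 with RLE and on all TPM scales, and 0 to 5 without 1 library. It was 1 at 3 h with receptor share, and 1 within dDAVP at 6 h with at least 5 CPM. At 12 h within dDAVP it was 0 with RLE, 2 with at least 5 CPM, on log2(TPM + 1) and with only the libraries compared, and 3 with receptor share and on rescaled TPM. At 24 h within dDAVP it was 1 at 0.01, with RLE, with no filter and without each library. The count of all genes called ran from 84 to 9333 at 6 h and 1227 to 16748 for the mean effect without 1 library, against 11320 and 9854. The causes were not tested.

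Log2 fold changes that turned on log2(TPM + 1) and log2(TPM + 0.1), in that order, were, at 3 h, Rhcg (-0.08, -0.09), Car2 (-0.23, -0.24) and Atp6v1b1 (0, -0.01), and, at 6 h, Rhcg (-0.17, -0.19), Rhbg (-0.07, -0.18), Car2 (-0.11, -0.11) and Atp6v1b1 (-0.12, -0.15). For the mean effect these were Rhcg (-0.04, -0.04), Car2 (-0.06, -0.06), Got1 (-0.04, -0.04), Got2 (-0.06, -0.06), Glud1 (-0.07, -0.08), Atp6v0a4 (-0.02, -0.03), Atp6v1g1 (0, 0), Atp6v0b (-0.04, -0.04), Atp6v1e1 (-0.03, -0.03), Slc4a7 (-0.13, -0.15), Slc4a11 (-0.08, -0.08), Gata3 (-0.02, -0.02), Grhl2 (-0.11, -0.12), Cux1 (-0.1, -0.1), Foxp1 (-0.2, -0.22) and Src (-0.04, -0.05), and, with 0.1 added only, Rhbg (-0.01) and Atp6v1b1 (0). Rhcg at 6 h against 3 h within dDAVP was -0.21 and -0.25. On TPM rescaled without Gm24245, which was chosen after seeing the data, Car2 at 3 h was -0.12, Rhcg and Rhbg at 6 h were -0.03 and -0.02, Rhcg at 6 h against 3 h was -0.09, Slc26a4 at 12 h against 3 h was 0, and Slc4a7, Slc4a11, Grhl2, Cux1 and Foxp1 were -0.07, -0.01, -0.04, -0.02 and -0.14 for the mean effect. There Got1, Got2, Glud1, Atp6v0a4, Gata3 and Src were at 0.04, 0.02, 0, 0.03, 0.05 and 0.03. Atp6v1g1, Atp6v0b and Atp6v1e1 were at 0.08, 0.04 and 0.05.

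With receptor share, Slc4a1, Slc26a4, Car2 and Atp6v1b1 at 3 h became 0.2, 0.29, -0.12 and -0.08, Slc26a4, Car2 and Atp6v1b1 at 6 h 0.04, -0.02 and -0.51, Slc26a4 at 12 h 0.09, Atp6v1b1 and Slc26a3 on average -0.11 and 0.1, Rhcg at 6 h against 3 h -0.06, and Foxi1 and Atp6v1b1 at 24 h against 3 h 0.1 and -0.08. With at least 5 CPM, Car2 at 3 h was -0.11, Atp6v1b1 at 6 h -0.05 and Rhcg at 6 h against 3 h -0.05. Without 1 library, dDAVP against vehicle spanned -0.05 to 0.16 for Car2 at 3 h, -0.38 to 0.01 for Rhbg and -0.02 to 0.54 for Atp6v1b1 at 12 h, and -0.13 to 0.46 for Atp6v1b1 at 24 h, where it was -0.05 without vehicle replicate 3. Within dDAVP against 3 h, Foxi1 spanned -1.59 to 0.19 at 6 h, -0.01 to 1.18 at 12 h and -0.85 to 0.34 at 24 h, and Slc4a1 -0.64 to 0.34 at 12 h.

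Rhcg at 24 h against 3 h within dDAVP kept its direction and call in all 10 alternatives and without each library. The labels do not say whether replicate numbers mark shared cultures. Of 21 same-numbered pairs of groups, 9 had a correlation of deviations above 0.1 (-0.44 to 0.587), which does not settle whether the libraries were paired. With the replicate number as a block, the counts were 0, 4, 0, 0, 5, 0, 1 and 3, the added calls being Slc26a4 at 6 h and Car2 at 24 h against 3 h. Depth limits the exchangers and Foxi1, which have at most 41 counts in a library.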
